A study of Mus musculus with 12 samples.

Results

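The glucocorticoid receptor, its sister receptor for mineralocorticoids, the enzymes that set the local supply of their ligand, and 5 of their target genes were followed in the adrenal cortex of mice on different diets. The set consisted of 9 genes, *Nr3c1*, *Nr3c2*, *Hsd11b1*, *Hsd11b2*, *Fkbp5*, *Tsc22d3*, *Zbtb16*, *Sgk1*, and *Dusp1*, chosen by name for what they are known to do, out of 49585 genes counted. Earlier results of these data were known when they were chosen. RNA-seq of the adrenal cortex covered 12 mice, 4 mice per group and 1 library per mouse. The methods give male mice that entered the diets at 6 weeks of age for LFD and HFD feeding. They list the icosapent ethyl feeding under other experiments and do not repeat sex or age there. LFD mice (called Normal Diet in the labels) received a diet with 10% of its energy as fat and HFD mice a diet with 60%, both for 20 weeks. Icosapent ethyl–treated mice received the same HFD for 20 weeks, with icosapent ethyl, an ethyl ester of the omega-3 fatty acid EPA, mixed into it over the last 10 weeks. The methods describe wild-type C57BL/6J mice, whereas the labels of all 12 mice give the genotype *Fads2*-/-, and *Fads2* was expressed at between 451.8 and 2182 CPM in each of them. The cortex was cut away from the medulla by hand under a microscope, and the dissected tissue holds several cell types.

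Glucocorticoids, in mice mainly corticosterone, enter cells and bind the glucocorticoid receptor, which is held by heat shock proteins in the cytoplasm until it binds its ligand. The bound receptor moves to the nucleus and acts on target genes through short DNA sequences called glucocorticoid response elements. The adrenal cortex makes the ligand and is itself exposed to high concentrations of it. Target genes such as *Fkbp5*, *Tsc22d3*, and *Zbtb16* are widely used to read out receptor activity in other tissues, whereas *Sgk1* and *Dusp1* also respond to many other signals.

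The libraries held between 34785979 and 67295963 counts, and mitochondrially encoded genes took from 1.84% to 3.23% of them. Expression is given as CPM, counts per 1000000 of the library total after TMM scaling of the libraries in edgeR, and levels of different genes are compared per kb of exon. All 8 adrenocortical markers, the steroidogenic genes *Star*, *Cyp11a1*, *Cyp21a1*, *Cyp11b1*, *Cyp11b2*, and *Hsd3b1*, the ACTH receptor *Mc2r*, and the transcription factor *Nr5a1*, were above 0 in all 12 libraries. They summed to between 41570 and 68960 CPM in LFD mice (median 51440), between 55330 and 94700 CPM in HFD mice (81300), and between 58010 and 88000 CPM in icosapent ethyl–treated mice (72140). The 10 markers of chromaffin cells, the cells of the medulla, were also above 0 in every library. They summed to between 5069 and 17970 CPM in LFD mice, between 2482 and 7986 CPM in HFD mice, and between 4503 and 8748 CPM in icosapent ethyl–treated mice. *Th* and *Dbh*, which define these cells, had log2 fold changes of -1.02 and -1.21 in HFD versus LFD mice. Since whole tissue was sequenced, fewer cells of a type and less RNA per cell cannot be told apart.

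The 9 genes were expressed at very different levels. On the per-kb scale, *Sgk1* was the highest over the 12 mice with a mean of 34.4 CPM per kb, followed by *Dusp1* with 29.4, *Fkbp5* with 18.5, *Hsd11b1* with 12.7, *Tsc22d3* with 11.7, *Nr3c1* with 5.40, *Nr3c2* with 2.80, *Zbtb16* with 2.45, and *Hsd11b2* with 0.242 CPM per kb. Some neighbors in this order could not be separated. *Dusp1* ranged from 9.02 to 80.3 CPM per kb and overlapped every other target except *Zbtb16*, *Hsd11b1* (10.1 to 18.5 CPM per kb) overlapped *Fkbp5* (11.9 to 23.7) and *Tsc22d3* (7.08 to 15.4), and *Nr3c2* (2.04 to 3.55) overlapped *Zbtb16* (0.998 to 4.29). *Nr3c1* lay above the highest *Nr3c2* value and below the lowest *Tsc22d3* value in all 12 mice. The spread over the 12 mice, as SD in percent of the mean CPM, was smallest for *Hsd11b2* (12.2%), *Nr3c1* (16.2%), and *Hsd11b1* (16.9%), and largest for *Zbtb16* (41.9%) and *Dusp1* (93.0%).

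**Figure D1:**
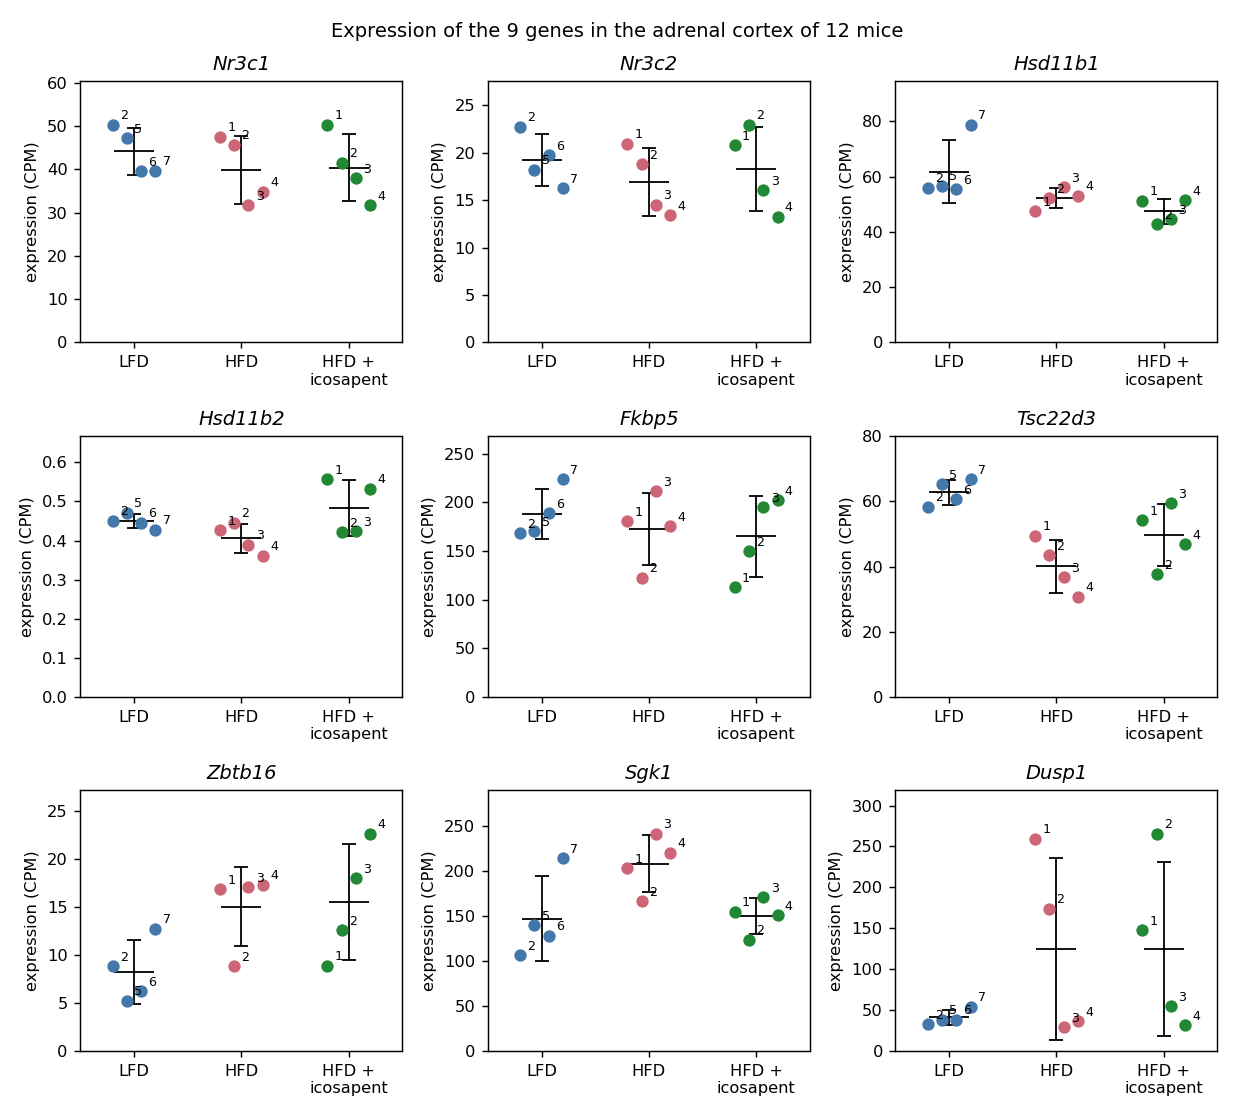
Expression of the 9 genes (vertical axes, CPM) in each mouse of the LFD, HFD, and icosapent ethyl–treated groups (4 mice each, numbered by replicate), with the mean and SD as a line and bars. *Tsc22d3* is the only gene of the 9 with no overlap between HFD and LFD mice, and *Dusp1* falls into high and low mice within both HFD groups.

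None of the 9 genes had an adjusted p below 0.05 in any of the 3 comparisons in edgeR (quasi-likelihood test, adjusted over all genes tested by the Benjamini-Hochberg method). In HFD versus LFD mice, 230 of 15909 genes passed (1.45%), and *Tsc22d3*, the nearest of the 9, missed the threshold with an adjusted p of 0.0566. At an unadjusted p below 0.05, *Tsc22d3* was lower and *Zbtb16*, *Sgk1*, and *Dusp1* were higher in HFD mice, which is 4 of 9 genes beside 24.8% of all genes (12.5% lower and 12.4% higher). None of the 8 adrenocortical markers passed the threshold in the same comparison, but all 8 had a positive log2 fold change (median 0.42), 5 of them at an unadjusted p below 0.05 and 2 without overlap of the groups (7.71% of all genes were higher without overlap), and their part in the differences of the 9 genes was not tested. The Wald test of DESeq2, which called 2049 of the 15291 genes that it gave an adjusted p (13.4%), called *Tsc22d3* alone among the 9 (adjusted p = 0.00207). Of 15913 genes in icosapent ethyl–treated versus HFD mice, none passed in edgeR (0.0%). In DESeq2 6 of 15908 genes passed (0.0377%), none of them among the 9. *Sgk1* alone was below an unadjusted p of 0.05 there, as lower, beside 221 genes in all (1.39%, or 0.716% lower and 0.672% higher). Of 15935 genes in icosapent ethyl–treated versus LFD mice, none passed in edgeR (0.0%). In DESeq2 477 of 14999 genes passed (3.18%), again none of the 9. Here 4 of the 9 were below an unadjusted p of 0.05 beside 14.0% of all genes, *Zbtb16* and *Dusp1* as higher (7.29%) and *Hsd11b1* and *Tsc22d3* as lower (6.67%). The comparisons share mice, so their values are not independent of each other. The HFD mice enter the first and the second, the LFD mice the first and the third, and the icosapent ethyl–treated mice the second and the third.

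**Figure D2:**
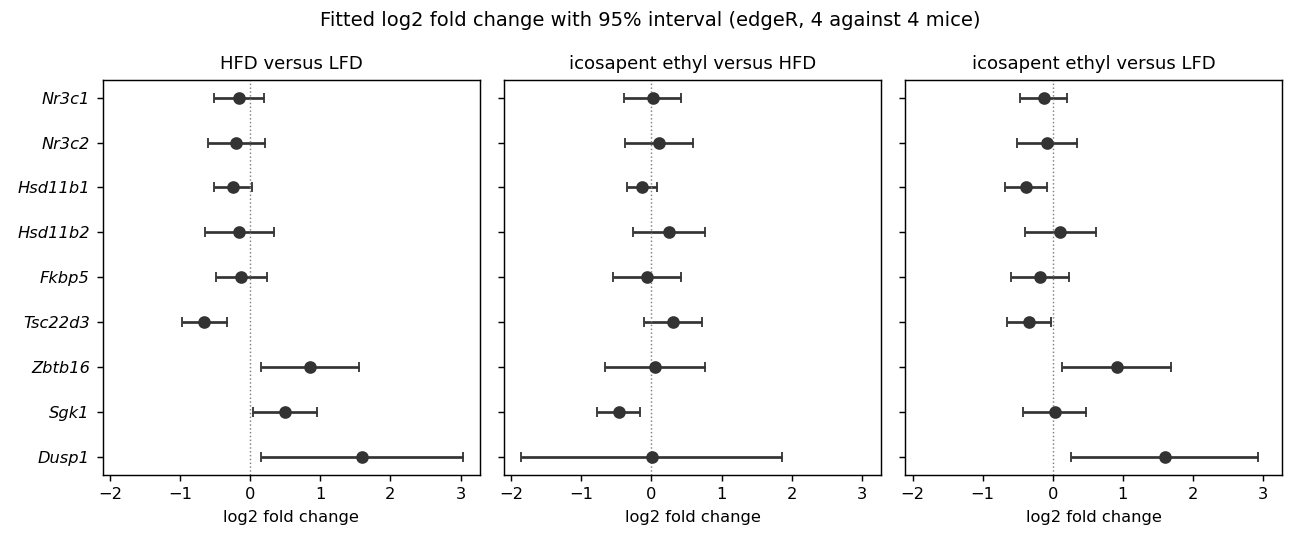
Fitted log2 fold change of each of the 9 genes (horizontal axes) with its 95% interval as a bar, in the 3 comparisons of 4 against 4 mice, each panel from its own edgeR fit. The *Tsc22d3* interval in HFD versus LFD mice, -0.97 to -0.33, lies below 0, and the *Dusp1* intervals are the widest in all 3 panels.

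The receptors differed little between the groups. *Nr3c1*, which encodes the glucocorticoid receptor (ENSMUSG00000024431, chromosome 18 of GRCm38 from 39410545 to 39519421, minus strand), stood at 50.3, 47.2, 39.5, and 39.7 CPM in the LFD mice numbered 2, 5, 6, and 7. It stood at 47.5, 45.6, 31.7, and 34.8 CPM in HFD mice 1 to 4 and at 50.3, 41.5, 37.9, and 31.7 CPM in icosapent ethyl–treated mice 1 to 4. The 3 groups overlapped. The means were 44.2 ± 5.43, 39.9 ± 7.84, and 40.4 ± 7.76 CPM (SD, n = 4 each). Its log2 fold change was -0.16 in HFD versus LFD mice (SE 0.16, 95% interval -0.51 to 0.20, adjusted p = 0.574) and 0.02 in icosapent ethyl–treated versus HFD mice (95% interval -0.39 to 0.42).

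*Nr3c2* encodes the mineralocorticoid receptor, which binds aldosterone and, with high affinity, also corticosterone (ENSMUSG00000031618, chromosome 8 from 76899442 to 77245012, plus strand). Its values were 22.8, 18.2, 19.8, and 16.3 CPM in LFD mice 2, 5, 6, and 7, then 20.9, 18.8, 14.5, and 13.4 CPM in HFD mice and 20.8, 23.0, 16.0, and 13.2 CPM in icosapent ethyl–treated mice. Again the groups overlapped, with HFD mice 3 and 4 and icosapent ethyl–treated mouse 4 at the low end for both receptors. Pearson's r of *Nr3c2* with the mean of 10 chromaffin cell markers was 0.574 over the 12 mice (permutation p = 0.0526, adjusted 0.155), 0.519 with the group means subtracted, and 0.648 without HFD mice 2 and 4, the mice farthest from the marker median, and the part of these cells was not tested. Its log2 fold change was -0.20 in HFD versus LFD mice (SE 0.18, 95% interval -0.60 to 0.21, adjusted p = 0.535) and 0.11 in icosapent ethyl–treated versus HFD mice (95% interval -0.37 to 0.59).

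*Nr3c1* and *Nr3c2* varied together from mouse to mouse. Over the 12 mice, Pearson's r of their log2 CPM was 0.842 (permutation p = 0.00115, 0.0115 after adjustment over the 10 relations computed) and Spearman's rho was 0.804 (permutation p = 0.00274, adjusted 0.0274). Without HFD mouse 3 and icosapent ethyl–treated mouse 4, the mice farthest from the *Nr3c1* median, r was 0.744, and with the group means subtracted it was 0.835. Both genes are read from the same libraries and share their scaling, depth, and dissection. The ratio of *Nr3c1* to *Nr3c2* per kb within a mouse, which is free of library scaling, was between 1.52 and 2.19. Its mean log2 count ratio was 1.20 ± 0.16 in LFD, 1.24 ± 0.11 in HFD, and 1.16 ± 0.20 in icosapent ethyl–treated mice (SD, n = 4 each), and the exact permutation p of the 3 differences lay between 0.6 and 0.714 (two-sided, adjusted p = 0.743 over 6 ratio tests).

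**Figure D3:**
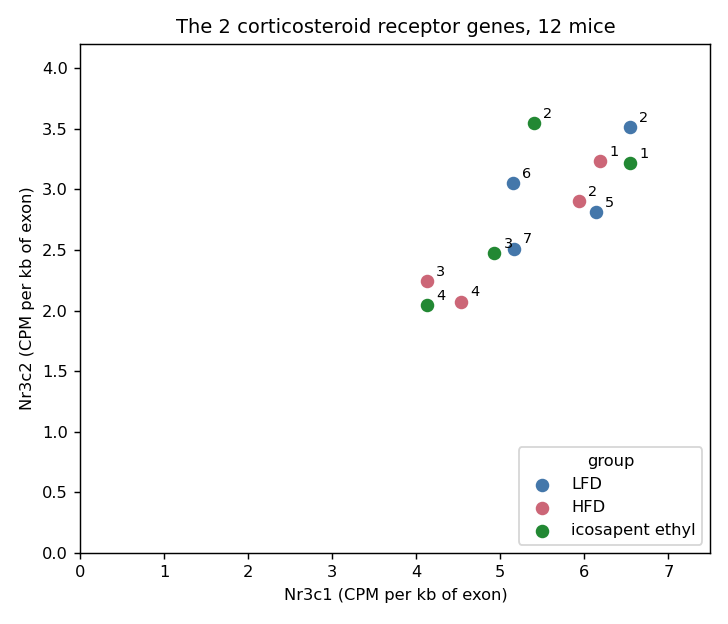
*Nr3c1* (horizontal axis) against *Nr3c2* (vertical axis), both in CPM per kb of exon, with 1 point per mouse colored by group and numbered by replicate. The 12 points lie along a rising band (r = 0.842 on log2 CPM). HFD and icosapent ethyl–treated mice spread over most of it, and no LFD mouse lies at its low end.

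Among the genes that help the receptor hold its ligand or pass on its signal, no coregulator and no chaperone passed the threshold in any comparison. Of the 12 coregulators, proteins that the receptor recruits to switch genes on or off, all 12 had a positive log2 fold change in HFD versus LFD mice, 5 of them at an unadjusted p below 0.05 (12.4% of all genes were higher at that p), and their median was 0.19 beside -0.01 over all genes. Among the most expressed, the corepressor *Ncor1* had a log2 fold change of 0.15 (SE 0.12) and the chromatin remodeler *Smarca4* 0.23 (SE 0.09). Only 4 of the 12 were positive in icosapent ethyl–treated versus HFD mice, with a median of -0.04. The 14 chaperones and cochaperones, which keep the receptor able to bind its ligand, had a median of -0.07 in both of these comparisons. *Hsp90ab1* and *Hsp90aa1*, the HSP90 proteins that hold the receptor, had log2 fold changes of -0.23 (SE 0.09) and -0.36 (SE 0.15) in icosapent ethyl–treated versus HFD mice (adjusted p = 0.9997 each), and were the 2 of the 14 at an unadjusted p below 0.05 (0.716% of all genes were lower at that p). *Hspa8*, the constitutive HSP70 that loads the receptor onto HSP90, had -0.13 (SE 0.12) in HFD versus LFD mice and -0.07 (SE 0.11) in icosapent ethyl–treated versus HFD mice.

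The enzymes of local corticosterone supply were very unequal in expression. *Hsd11b1*, the enzyme that regenerates active corticosterone from its inactive 11-keto form (ENSMUSG00000016194, chromosome 1 from 193221634 to 193264075, minus strand), was at 56.0, 56.7, 55.4, and 78.8 CPM in LFD mice 2, 5, 6, and 7. In HFD mice it was at 47.5, 52.1, 56.2, and 53.0 CPM and in icosapent ethyl–treated mice at 51.2, 42.8, 44.5, and 51.5 CPM. LFD mouse 7 stood well above the others, and the icosapent ethyl–treated mice all lay below the LFD mice. The means were 61.7 ± 11.4, 52.2 ± 3.60, and 47.5 ± 4.49 CPM (SD, n = 4 each). The log2 fold change was -0.38 in icosapent ethyl–treated versus LFD mice (SE 0.13, 95% interval -0.68 to -0.08, adjusted p = 0.282), and 588 genes (3.69%) were likewise lower without overlap. Without LFD mouse 7 it was -0.23. In HFD versus LFD mice it was -0.25 (SE 0.12, adjusted p = 0.239), or -0.12 without that mouse.

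*Hsd11b2*, which inactivates corticosterone and guards the mineralocorticoid receptor in aldosterone-responsive tissues such as the kidney (ENSMUSG00000031891, chromosome 8 from 105518755 to 105523988, plus strand), was close to the limit of measurement. Its 16 to 33 counts per library gave 0.451, 0.472, 0.445, and 0.428 CPM in LFD mice 2, 5, 6, and 7. HFD mice had 0.426, 0.445, 0.389, and 0.362 CPM and icosapent ethyl–treated mice 0.557, 0.422, 0.424, and 0.533 CPM, and the groups overlapped. Its log2 fold change was -0.15 in HFD versus LFD mice (95% interval -0.64 to 0.34) and 0.25 in icosapent ethyl–treated versus HFD mice (95% interval -0.26 to 0.76).

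Per kb, *Hsd11b1* exceeded *Hsd11b2* by between 38.8 and 77.6 times in every mouse. The ratio was 52.6, 50.9, 52.5, and 77.6 in LFD mice 2, 5, 6, and 7, then 47.1, 49.6, 60.6, and 61.5 in HFD mice, and 38.8, 42.6, 44.4, and 41.2 in icosapent ethyl–treated mice. All 4 icosapent ethyl–treated mice thus lay below the other 8. On the log2 scale the difference of the mean count ratios was -0.38 from HFD mice and -0.46 from LFD mice, each with an exact two-sided permutation p of 0.0286, the smallest that 4 against 4 mice allow, and an adjusted p of 0.0857 over the 6 ratio tests. Both differences use the same 4 icosapent ethyl–treated mice, and the denominator rests on 16 to 33 counts.

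Other genes of corticosteroid reduction and transport were measured beside them. Of 9 such genes, 0 passed the threshold in HFD versus LFD mice, 4 were higher and 1 was lower at an unadjusted p below 0.05 (12.4% and 12.5% of all genes), and the median log2 fold change was 0.43. *Abcb1b*, a multidrug transporter that exports steroids, averaged 1798 ± 692, 4496 ± 1448, and 3380 ± 1070 CPM in LFD, HFD, and icosapent ethyl–treated mice (log2 fold change in HFD versus LFD mice 1.32, SE 0.34, adjusted p = 0.0760). *Srd5a2*, a 5α-reductase that can act on corticosterone, differed by 1.11 on this scale (SE 0.30, adjusted p = 0.0807). *H6pd*, which supplies the NADPH that HSD11B1 uses, had 0.18 (SE 0.17).

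*Tsc22d3* had the lowest adjusted p of the 9 genes in HFD versus LFD mice. It encodes GILZ, a leucine zipper protein induced by glucocorticoids that restrains inflammatory transcription factors (ENSMUSG00000031431, chromosome X from 140539528 to 140600659, minus strand). LFD mice 2, 5, 6, and 7 had 58.4, 65.2, 60.7, and 66.8 CPM. HFD mice 1 to 4 had 49.4, 43.5, 36.7, and 30.8 CPM, and icosapent ethyl–treated mice 1 to 4 had 54.2, 37.6, 59.5, and 46.9 CPM. Every HFD mouse lay below every LFD mouse, as was the case for 926 genes (5.82%), and the icosapent ethyl–treated mice spread over both ranges. The means were 62.8 ± 3.93, 40.1 ± 8.12, and 49.6 ± 9.47 CPM (SD, n = 4 each).

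The log2 fold change of *Tsc22d3* in HFD versus LFD mice was -0.65 (SE 0.14, 95% interval -0.97 to -0.33), or 0.636-fold. The adjusted p of 0.0566 lay just above the threshold and fell below it with other settings, at 0.00207 by DESeq2, 0.0476 without a filter on low counts, 0.0490 with all 12 mice in 1 fit, and 0.0245 without HFD mouse 1. Without any other mouse it was between 0.0794 and 0.153, with log2 fold changes from -0.69 to -0.54. In icosapent ethyl–treated mice the log2 fold change was 0.31 versus HFD mice (SE 0.18, 95% interval -0.11 to 0.72, adjusted p = 0.9997) and -0.34 versus LFD mice (SE 0.14, 95% interval -0.65 to -0.03, adjusted p = 0.333).

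The relation of the 9 genes to the mean of the 10 chromaffin markers, over the 12 mice, ran from a Pearson's r of -0.582 for *Sgk1* to 0.574 for *Nr3c2*, and none passed after adjustment (the lowest adjusted p was 0.155). With the group means subtracted, r ran from -0.659 for *Hsd11b1*, which was at -0.0909 before, to 0.519 for *Nr3c2*. Without HFD mice 2 and 4 it ran from -0.695 for *Zbtb16* to 0.648 for *Nr3c2*. The part of these cells in *Hsd11b1* and *Zbtb16* was not tested. For *Tsc22d3* r was 0.553 (permutation p = 0.062, adjusted 0.155), 0.121 with the group means subtracted, and 0.279 without HFD mice 2 and 4. All 10 chromaffin markers had a negative log2 fold change in HFD versus LFD mice (median -1.24), 8 of them at an unadjusted p below 0.05 (12.5% of all genes were lower at that p). Of 7 macrophage markers 2, *Cd68* and *C1qa*, were past the threshold as lower (log2 fold changes -1.25 and -0.74), beside 0.471% of all genes. These 2 were named after their values were seen, and with 1 mouse removed at a time each was still past the threshold in 2 of 8 fits, without HFD mouse 1 and without LFD mouse 2 (adjusted p up to 0.11 and 0.115 in the others). The summed macrophage markers were at 343.2 to 501 CPM in LFD, 271.5 to 323.7 CPM in HFD, and 281.4 to 303.7 CPM in icosapent ethyl–treated mice, with *Adgre1* and *Csf1r* at log2 fold changes of -0.48 and -0.11 in HFD versus LFD mice. The part of either cell type in the *Tsc22d3* difference was not tested.

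*Tsc22d3* and *Sgk1* are shown with stretches of DNA upstream of an annotated transcription start (RefSeq, GRCm38.p6), because the receptor acts through such DNA. The upstream DNA of *Nr3c1*, *Hsd11b2*, and *Zbtb16* was not searched. Promoter windows, 250 bases upstream of each start, were taken for the other 6 of the 9 genes, 13 windows in all. They were searched on both strands for AGAACA and TGTTCT separated by 3 bases, the full palindromic form of a glucocorticoid response element, and for its core, AGAACA or TGTTCT alone, both of which the full form contains. The full form was in 3 of 32851 promoter windows of all genes (0.00913%), and 1 of these 3 belongs to *Sgk1*. The core was in 16.1% of all windows and in 4 of the 13, of which 3 are *Sgk1* windows and 1 is a *Tsc22d3* window. The first stretch (chrX:140600660-140600772, minus strand) is the part of the window of the outermost *Tsc22d3* start that lies outside exons, 113 bases. The 137 bases between it and that start are exonic and are not printed. The second (chr10:21993640-21993889, plus strand) lies within the *Sgk1* gene, outside exons, and holds the full form 189 bases upstream of a start. Capitals mark the core.
Tsc22d3: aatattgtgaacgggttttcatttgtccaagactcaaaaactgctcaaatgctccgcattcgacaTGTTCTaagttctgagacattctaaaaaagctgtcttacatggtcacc
Sgk1: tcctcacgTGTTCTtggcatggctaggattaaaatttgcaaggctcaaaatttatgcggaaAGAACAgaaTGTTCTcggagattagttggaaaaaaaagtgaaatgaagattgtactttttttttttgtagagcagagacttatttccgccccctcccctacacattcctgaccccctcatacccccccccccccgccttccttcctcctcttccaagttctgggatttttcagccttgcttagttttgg

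*Sgk1* encodes a kinase that raises sodium transport and is induced by both receptors (ENSMUSG00000019970, chromosome 10 from 21882184 to 21999903, plus strand). It stood at 107, 140, 128, and 215 CPM in LFD mice 2, 5, 6, and 7, at 204, 167, 242, and 221 CPM in HFD mice 1 to 4, and at 155, 124, 171, and 151 CPM in icosapent ethyl–treated mice 1 to 4. HFD mice were higher than 3 of the 4 LFD mice and, apart from HFD mouse 2, higher than every icosapent ethyl–treated mouse. LFD mouse 7 was as high as the HFD mice. The means were 148 ± 46.9, 208 ± 31.7, and 150 ± 19.6 CPM (SD, n = 4 each).

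The log2 fold change of *Sgk1* was 0.49 in HFD versus LFD mice (SE 0.20, 95% interval 0.04 to 0.95, adjusted p = 0.174) and -0.47 in icosapent ethyl–treated versus HFD mice (SE 0.13, 95% interval -0.78 to -0.16, adjusted p = 0.9997). In icosapent ethyl–treated versus LFD mice it was 0.03 (95% interval -0.43 to 0.48). Without LFD mouse 7, the HFD versus LFD value was 0.72 (adjusted p = 0.0824). Pearson's r of *Sgk1* with the chromaffin marker mean was -0.582 (permutation p = 0.0488, adjusted 0.155) and -0.332 with the group means subtracted, and the part of these cells was not tested.

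*Fkbp5*, a cochaperone that lowers the affinity of the receptor for its ligand and is itself induced by the receptor (ENSMUSG00000024222, chromosome 17 from 28399094 to 28517527, minus strand), did not separate the groups. Its values were 168, 171, 189, and 224 CPM in LFD mice 2, 5, 6, and 7, then 181, 123, 211, and 176 CPM in HFD mice and 113, 150, 195, and 203 CPM in icosapent ethyl–treated mice. HFD mouse 2 and icosapent ethyl–treated mouse 1 were the lowest, and LFD mouse 7 was the highest. Its log2 fold change was -0.13 in HFD versus LFD mice (SE 0.16, 95% interval -0.49 to 0.24, adjusted p = 0.665) and -0.07 in icosapent ethyl–treated versus HFD mice (95% interval -0.55 to 0.42).

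*Zbtb16*, the zinc finger repressor PLZF, induced by glucocorticoids in many cell types (ENSMUSG00000066687, chromosome 9 from 48654297 to 48836222, minus strand), was at 8.88, 5.27, 6.26, and 12.7 CPM in LFD mice 2, 5, 6, and 7. It was at 16.8, 8.89, 17.1, and 17.3 CPM in HFD mice and at 8.92, 12.6, 18.0, and 22.7 CPM in icosapent ethyl–treated mice. HFD mouse 2 fell among the LFD mice while the other 3 HFD mice lay together above them, and icosapent ethyl–treated mice spread from just above HFD mouse 2 to above every other mouse. The log2 fold change was 0.85 in HFD versus LFD mice (SE 0.31, 95% interval 0.15 to 1.55, adjusted p = 0.145) and 0.91 in icosapent ethyl–treated versus LFD mice (SE 0.34, 95% interval 0.14 to 1.69, adjusted p = 0.303). Versus HFD mice it was 0.05 (95% interval -0.66 to 0.77).

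*Dusp1*, a phosphatase that switches off MAP kinases (ENSMUSG00000024190, chromosome 17 from 26505590 to 26562128, minus strand), split the mice within groups more than between them. LFD mice 2, 5, 6, and 7 had 33.4, 38.8, 38.8, and 54.7 CPM. HFD mice 1 to 4 had 259, 174, 29.9, and 36.7 CPM, and icosapent ethyl–treated mice 1 to 4 had 148, 266, 55.3, and 32.3 CPM. HFD mice 1 and 2 and icosapent ethyl–treated mice 1 and 2 were high, whereas the other 4 mice on HFD lay at or near the LFD range. The same numbers split the libraries over all expressed genes. With group means subtracted, HFD and icosapent ethyl–treated mice correlated positively within numbers 1 and 2 and within numbers 3 and 4. Across these 2 sets every correlation was negative (-0.126 to -0.607). The labels do not say what the numbers mark, and their part in the *Dusp1* split was not tested. Its log2 fold change was 1.59 in HFD versus LFD mice (SE 0.64, 95% interval 0.15 to 3.03, adjusted p = 0.170), and 0.95 without HFD mouse 1. It was 1.60 in icosapent ethyl–treated versus LFD mice (SE 0.58, adjusted p = 0.297), and 0.92 without icosapent ethyl–treated mouse 2. Between icosapent ethyl–treated and HFD mice it was 0.00, with an interval of -1.86 to 1.87. *Dusp1* overlaps *Ergic1* on the opposite strand, and the counting used the strand of the reads. It also overlaps AC122252.1 and the pseudogene AC122252.4 on its own strand, which the strand of the reads cannot separate.

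*Dusp1* varied like some immediate-early genes, which respond to stimuli within minutes, and unlike others. *Fos*, a subunit of the transcription factor AP-1, was the gene most like it over the 12 mice (Pearson's r of log2 CPM 0.968), with 8.20, 7.16, 11.1, and 11.4 CPM in LFD mice 2, 5, 6, and 7. HFD mice had 426, 319, 12.3, and 15.0 CPM of *Fos* and icosapent ethyl–treated mice 316, 331, 28.1, and 10.1 CPM. The same 4 mice were highest for *Dusp1* and for 6 of the 12 immediate-early genes, *Fos*, *Junb*, *Egr1*, *Ier2*, *Btg2*, and *Zfp36*. The other 6, *Jun*, *Fosb*, *Egr2*, *Nr4a1*, *Ier3*, and *Atf3*, had other mice among their 4 highest. *Atf3*, a stress-induced transcription factor, was at 9.01, 21.7, 64.9, and 45.0 CPM in HFD mice 1 to 4 and at 14.2, 5.22, 71.8, and 19.1 CPM in icosapent ethyl–treated mice 1 to 4. *Fosb* and *Ier3* were at 23.2 and 21.8 CPM in icosapent ethyl–treated mouse 2 and at 236.6 and 157 CPM in icosapent ethyl–treated mouse 3. *Nr4a1*, an orphan nuclear receptor of the same class of genes, had its highest values in HFD mouse 2 (2231 CPM) and icosapent ethyl–treated mouse 3 (2043 CPM) and a low one in icosapent ethyl–treated mouse 2 (146 CPM). These exceptions were named after their values were seen.

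**Figure D4:**
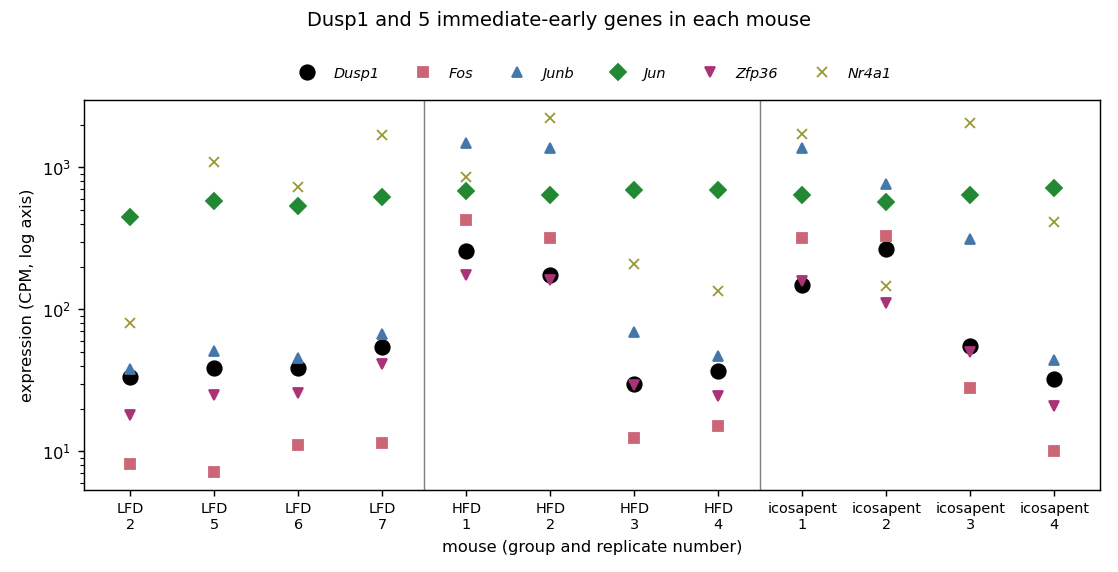
Expression (vertical axis, CPM, log scale) of *Dusp1* and of the immediate-early genes *Fos*, *Junb*, *Jun*, *Zfp36*, and *Nr4a1* in each of the 12 mice (horizontal axis, group and replicate number), 1 marker per mouse and gene. *Dusp1*, *Fos*, *Junb*, and *Zfp36* are high in HFD mice 1 and 2 and icosapent ethyl–treated mice 1 and 2, whereas *Nr4a1* has 146 CPM in icosapent ethyl–treated mouse 2 and *Jun* stays between 449 and 721 CPM.

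Of the 12 immediate-early genes, 7 were higher in HFD versus LFD mice at an unadjusted p below 0.05 (12.4% of all genes) and 0 passed the threshold, with a median log2 fold change of 0.91. The log2 fold change of *Junb* was 3.88 (SE 1.07, adjusted p = 0.0860) and that of *Jun* 0.30 (SE 0.10, adjusted p = 0.118), the latter without overlap of the groups, as were 7.71% of all genes in that direction. The median of the 12 was -0.19 in icosapent ethyl–treated versus HFD mice, and none was below an unadjusted p of 0.05.

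The DNA upstream of *Dusp1* is shown because such genes are often induced through cAMP, the messenger of ACTH in the adrenal cortex. The stretch (chr17:26508520-26508722, minus strand, RefSeq, GRCm38.p6) lies within the annotated gene but outside exons. The 47 bases between it and the annotated start are exonic and are not printed. The cAMP response element TGACGTCA, which reads the same on both strands, begins 143 bases upstream of the annotated start, and a shorter match to its core TGACG begins at 191. The full element was in 508 of 32851 windows (1.55%) and in 1 of the 13 windows taken for 6 of the 9 genes. It was also in 1 of the 14 windows taken for 10 of the 12 immediate-early genes, with *Egr1* and *Ier2* not searched. The core TGACG or its reverse CGTCA, which the full element contains, was in 17.8% of all windows. Capitals mark the full element and the core.
Dusp1: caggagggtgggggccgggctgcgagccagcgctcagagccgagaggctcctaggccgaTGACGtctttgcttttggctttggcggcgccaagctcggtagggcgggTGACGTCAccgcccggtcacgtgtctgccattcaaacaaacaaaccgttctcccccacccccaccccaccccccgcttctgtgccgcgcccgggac

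Other genes known to be induced by glucocorticoids were split in direction. Of 35 such genes 34 were tested, *Tat*, a liver enzyme gene, having too few counts. In HFD versus LFD mice 2 passed the threshold as higher (0.974% of all genes) and 1 as lower (0.471%), 14 of the 34 had a positive log2 fold change, and their median was -0.13. *Bcl6*, a transcriptional repressor, ranged from 16.5 to 30.3 CPM in LFD mice and from 50.2 to 88.2 CPM in HFD mice (log2 fold change 1.50, SE 0.25, adjusted p = 0.0398). *Cdkn1c*, a cell cycle inhibitor, ranged from 214 to 314 CPM in LFD mice and from 371 to 484 CPM in HFD mice (log2 fold change 0.78, SE 0.13, adjusted p = 0.0398). *Klf15*, a transcription factor of amino acid and lipid metabolism, ranged from 20.1 to 30.6 CPM in LFD mice and from 11.2 to 15.9 CPM in HFD mice (log2 fold change -0.96, SE 0.17, adjusted p = 0.0408). All 3 of them separated the groups without overlap (7.71% of all genes did so as higher and 5.82% as lower), and all 3 lost their call when any 1 mouse other than HFD mouse 1 was left out.

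The 2 most expressed genes of this list besides *Cdkn1c* were *Rgs2*, a regulator of G protein signaling, with a log2 fold change of 0.93 (95% interval -0.25 to 2.11), and *Rhob*, a small GTPase, with 0.07 (95% interval -0.25 to 0.40). None of the 34 passed the threshold in icosapent ethyl–treated versus HFD mice and their median was 0.05, with -0.54 for *Bcl6* (SE 0.39), 0.07 for *Cdkn1c* (SE 0.13), and 0.34 for *Klf15* (SE 0.15), each with an adjusted p of 0.9997. Versus LFD mice the values of these 3 genes were 0.97, 0.86, and -0.61, with adjusted p of 0.321, 0.153, and 0.202.

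**Figure D5:**
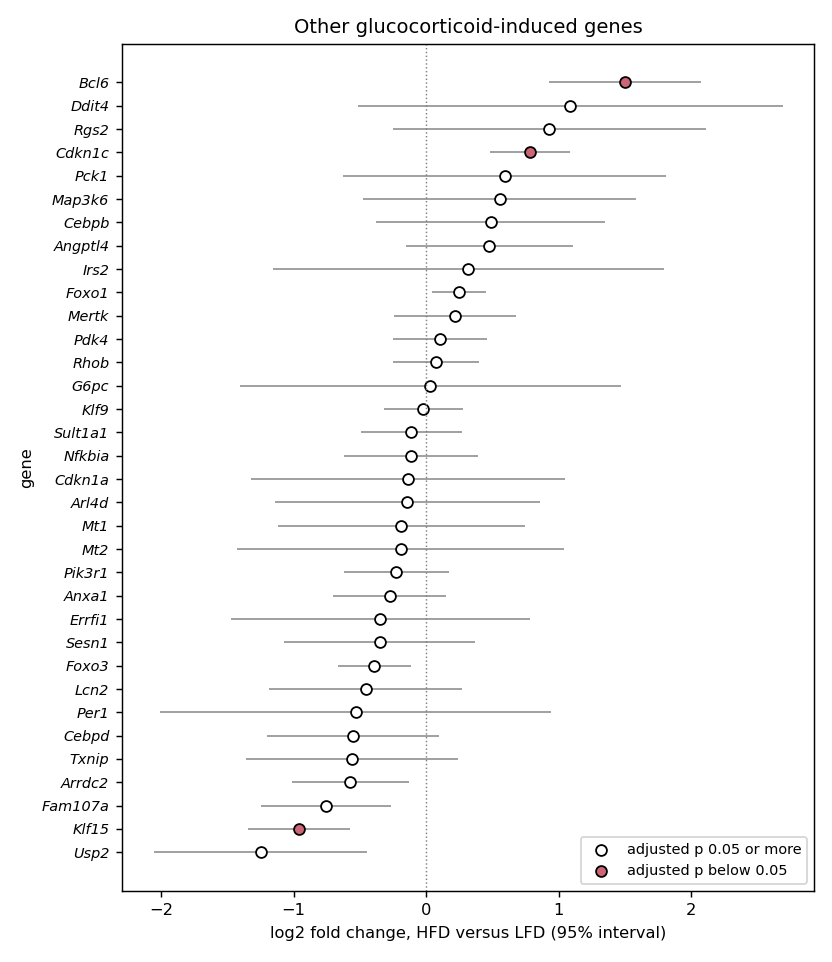
Log2 fold change in HFD versus LFD mice (horizontal axis) with its 95% interval for 34 other genes known to be induced by glucocorticoids, sorted by value, with genes past the edgeR threshold filled. *Bcl6* and *Cdkn1c* lie on the right (1.50 and 0.78), *Klf15* on the left (-0.96), and most intervals include 0.

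Of 10 genes that respond to the mineralocorticoid receptor in the kidney 8 were tested, *Scnn1b* and *Scnn1g*, subunits of the epithelial sodium channel, having too few counts, and 0 passed the threshold in any comparison. The median log2 fold change was 0.04 in HFD versus LFD mice and -0.05 in icosapent ethyl–treated versus HFD mice. Among the most expressed, the ubiquitin ligase *Nedd4* had 0.12 in HFD versus LFD mice (SE 0.11) and *Wnk1*, a kinase of salt transport, 0.28 (SE 0.15). *Atp1b1*, a β subunit of the sodium pump, was the 1 gene of the 8 at an unadjusted p below 0.05 (12.5% of all genes were lower at that p), and was named after its values were seen. It was at 128, 95.5, 135, and 72.7 CPM in LFD mice 2, 5, 6, and 7 and at 74.7, 39.1, 65.8, and 33.4 CPM in HFD mice 1 to 4, with LFD mouse 7 and HFD mouse 1 overlapping (log2 fold change -1.03, SE 0.30, adjusted p = 0.0933, and 0.0126 by DESeq2).

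Relatives of 2 of the target genes were examined between HFD and LFD mice. *Tsc22d1*, the most expressed relative of *Tsc22d3*, had a log2 fold change of 0.04 in HFD versus LFD mice (95% interval -0.39 to 0.46), and the MAP kinase phosphatase *Dusp6* had 0.52 (95% interval -0.40 to 1.44).

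The genes most similar to each of the 9 over the 12 mice were sought among 10889 other named genes with a mean of at least 5 CPM, by Pearson's r of log2 CPM, as a description. For *Nr3c1* they were *Trim34a*, *Pdlim4*, and *Fut10* (0.960 to 0.941), and for *Nr3c2* *Extl2*, *Zfp277*, and *Fam241b* (0.979 to 0.971). *Hsd11b1* was most like *Ly6c1*, *Lgals9*, and *Colec12* (0.909 to 0.872), and *Hsd11b2* most like *Rbm10*, *Ildr2*, and *Cyp2e1*, with the lowest values of the 9 (0.723 to 0.711). *Fkbp5* was most like *Fahd2a*, *Psat1*, and *Efhd1* (0.948 to 0.923), *Tsc22d3* most like *Prkd2*, *Tmem44*, and *Pkp4* (0.909 to 0.888), and *Zbtb16* most like *Api5*, *Gtf2f2*, and *Glul* (0.907 to 0.862). For *Sgk1* they were *Hecw2*, *Ces2e*, and *Ptprk* (0.892 to 0.885), and for *Dusp1*, after *Fos*, *Dcaf8* and *Zfp36* (0.958 and 0.953).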

How the data were processed

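Adrenal cortex RNA of 12 mice, 4 per group, was sequenced, and groups were taken from the labels. The raw counts per gene that the authors deposited were made from stranded TruSeq total RNA libraries with cutadapt, STAR (GRCm38), and HTSeq 0.6.1p1 in reverse-strand union mode on GENCODE M12. Symbols and coordinates were found for 49326 of 49585 genes in GENCODE M21, which can differ from M12 in exon lengths. The 9 genes and the gene lists were chosen with earlier results of these data known.

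edgeR 4.0.16 (R 4.3.3) was run on the counts with TMM scaling, filterByExpr (minimum count 10), a robust quasi-likelihood fit, and Benjamini-Hochberg adjustment at a threshold of 0.05, separately for each pair of groups (8 mice). The SE is the log2 fold change divided by the root of F, and 95% intervals use the t distribution with the fitted degrees of freedom. Ratios of 2 genes had a prior count of 0.5 and an exact permutation test, and correlations had 100000 permutations. Genes were named by rule. They were the 9 genes, the 3 most expressed and every called gene of each list, all adrenocortical and the first 2 other markers, and the 3 genes most similar to each of the 9. Some genes that the rule names are not reported here. The procedure was tested on simulated data.

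The alternatives were DESeq2 1.42.0, its size factors, library totals, other filters on low counts, all 12 mice in 1 fit, a prior count of 2 for ratios, each mouse left out, and the replicate number as a block for icosapent ethyl–treated versus HFD mice. After subtraction of the group means, mice with the same number correlated at 0.224, 0.116, 0.321, and 0.588 (numbers 1 to 4). Mice with different numbers also correlated, in either direction. Within numbers 1 and 2, HFD mouse 1 with icosapent ethyl–treated mouse 2 was at 0.570. HFD mouse 2 with icosapent ethyl–treated mouse 1 was at 0.404. Within numbers 3 and 4, HFD mouse 3 with icosapent ethyl–treated mouse 4 was at 0.342. HFD mouse 4 with icosapent ethyl–treated mouse 3 was at 0.0063. Every pair of a mouse numbered 1 or 2 with a mouse numbered 3 or 4 was negative, from -0.126 to -0.607. The labels do not say what the numbers mark. The main fit and the ratio tests therefore did not pair mice, and the number entered only as the alternative block.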

Additional observations from a re-analysis of the deposited data

Results flagged for a closer look

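The 27 sets of 4 values (9 genes in 3 groups) were searched for a mouse far from the other 3 of its group, by the gap to the nearest value as a share of the whole range, against Dixon's critical value, which chance exceeds in about 1 of 20 groups. There were 2. *Hsd11b1* was at 78.8 CPM in LFD mouse 7, with a gap of 0.943 of the range. *Zbtb16* was at 8.89 CPM in HFD mouse 2, with a gap of 0.943 of the range. Without LFD mouse 7, the *Hsd11b1* log2 fold change in HFD versus LFD mice was -0.12 in place of -0.25, and without HFD mouse 2 that of *Zbtb16* was 1.04 in place of 0.85.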

How the results depend on the processing

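In HFD versus LFD mice, 1 of the 9 genes (*Tsc22d3*) was past the threshold with DESeq2, without a filter on low counts, and with all 12 mice in 1 fit, and 0 or 1 when a mouse was left out. Of all genes, 2049 passed with DESeq2, 84 with library totals, 556 with all 12 mice in 1 fit, and between 0 and 918 when a mouse was left out (918 without HFD mouse 1, 78 without LFD mouse 2, and 0 without any other). Without scaling, *Klf15* lost its call (adjusted p = 0.0597). For icosapent ethyl–treated versus HFD mice 6 genes passed with DESeq2. Versus LFD mice 477 passed with DESeq2, 2 with all 12 mice in 1 fit, and 0 or 1 when a mouse was left out. The cause of these changes was not tested.

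With the replicate number as a block, 0 of the 9 genes and 0 genes in all passed in icosapent ethyl–treated versus HFD mice, so the pairing changed no call, and the *Sgk1* log2 fold change was -0.47. The LFD mice share only the number 2 with the other groups, so they were not paired.

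Values near 0 changed sign. *Dusp1* in icosapent ethyl–treated versus HFD mice was -0.00094 with DESeq2, -0.0019 with its size factors, -0.011 without a filter, and -0.67 to 0.64 when a mouse was left out. *Sgk1* versus LFD mice was -0.0054 with library totals and -0.10 to 0.27 when a mouse was left out. The other leave-one-out ranges that crossed 0 were -0.22 to 0.0059 for *Fkbp5* in HFD versus LFD mice, then -0.11 to 0.12 for *Nr3c1*, -0.021 to 0.24 for *Nr3c2*, -0.20 to 0.080 for *Fkbp5*, and -0.19 to 0.24 for *Zbtb16* in icosapent ethyl–treated versus HFD mice, and -0.21 to 0.051 for *Nr3c2* versus LFD mice. The difference between groups in the log2 ratio of *Nr3c1* to *Nr3c2* ranged from -0.028 to 0.097, -0.12 to 0.018, and -0.11 to 0.058 in the 3 comparisons, and that of *Hsd11b1* to *Hsd11b2* from -0.14 to 0.063 in HFD versus LFD mice. Of 471 recomputed log2 fold changes, 401 kept their direction and their side of the threshold. Among the 9 genes only *Hsd11b2* had counts as low as 16 to 33 per library, and all 9 rest on 4 mice per group. How far depth or the number of mice limited the results was not tested.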
